A study of Homo sapiens with 12 samples.

Results

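The hypoxia and angiogenesis responsive genes described here are VEGFA, NDRG1, ANKRD37, EGLN3 and SLC2A3. They were chosen by gene symbol and make up 5 of the 3699 genes in the authors' table. All 5 passed the filter on low counts. RNA was sequenced in 12 libraries of SW480, an established line from a human colorectal adenocarcinoma, with 3 libraries in each of 4 groups. Every group grew in IMDM with 10% serum for 12 h before fresh medium was given, and untreated cells received that medium alone. PUE cells were treated with PUE for 12 h and GLY_PUE cells with GLY and PUE together for 12 h. The GLY libraries carry 12, 13 and 14 h for replicates 1, 2 and 3, where the protocol states 12 h, so the labelled hour and the replicate number cannot be told apart in that group. The abbreviations and the absence of a dose are as the labels have them, and no label names a change of oxygen or glucose. Whether replicates were separate cultures is not stated, and p-values here measure the spread between libraries.

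Cells sense oxygen largely through the hypoxia-inducible factors (HIF). When oxygen is plentiful, prolyl hydroxylases of the EGLN family modify the HIF alpha subunits, which the VHL ubiquitin ligase then marks for breakdown. When oxygen is scarce the alpha subunits persist, pair with ARNT, bind hypoxia response elements built around ACGTG or GCGTG, and switch on genes for blood vessel growth, glucose uptake and adaptation. Of the genes here, VEGFA encodes the secreted growth factor that drives blood vessel formation, and EGLN3 encodes one of the oxygen-sensing prolyl hydroxylases, itself a HIF target. ANKRD37 encodes an ankyrin repeat protein whose gene is a known HIF target, NDRG1 encodes a cytoplasmic protein induced by hypoxia and other stresses, and SLC2A3 encodes the glucose transporter GLUT3.

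RefSeq promoter windows, from 250 bases before to 50 bases after the start site, were matched for 2 of the 5 genes, ANKRD37 and EGLN3. Both matched windows are shown, and they were searched on both strands for the motifs ACGTG and GCGTG. Sequences run 5′ to 3′ on the strand of the gene, and capitals mark each match to ACGTG on either strand. The ANKRD37 window lies at chr4:185396591-185396890 on the plus strand and the EGLN3 window at chr14:33951025-33951324 on the minus strand, both in build GRCh38.p14.
ANKRD37: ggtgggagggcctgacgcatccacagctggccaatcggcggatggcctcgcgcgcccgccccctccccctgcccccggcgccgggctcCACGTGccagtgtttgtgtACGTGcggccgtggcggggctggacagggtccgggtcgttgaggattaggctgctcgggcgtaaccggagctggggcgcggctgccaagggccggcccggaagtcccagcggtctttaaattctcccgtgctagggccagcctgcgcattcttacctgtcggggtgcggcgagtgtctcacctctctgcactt
EGLN3: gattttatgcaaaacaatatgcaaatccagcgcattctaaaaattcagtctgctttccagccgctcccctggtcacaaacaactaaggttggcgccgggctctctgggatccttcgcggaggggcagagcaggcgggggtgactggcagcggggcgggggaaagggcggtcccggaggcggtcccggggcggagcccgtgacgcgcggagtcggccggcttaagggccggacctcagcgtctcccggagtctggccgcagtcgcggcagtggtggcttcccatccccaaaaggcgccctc
The ANKRD37 window held 3 matches to ACGTG. One lies on the minus strand at −162 from the start site, and one on the plus strand at −161, and these overlap in the palindrome CACGTG. The other plus-strand match lies at −143. GCGTG was not found in it, and neither motif was found in the EGLN3 window. Among 35116 RefSeq windows of this length 21.4% held ACGTG, 36.5% held GCGTG, and 1.99% held 3 or more matches to ACGTG counted over both strands. A match describes the letters and not a binding site.

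Library totals recovered from the deposited values ran from about 19700000 to 21400000 reads. A count of 0 would therefore allow a level of up to 0.152 CPM (counts scaled to library size), counting error only. Every listed gene had been selected by the authors for change in some comparison, so calls within the table are not independent evidence of a response. In each group replicate 3 differed from replicates 1 and 2 by a mean chi-square per gene of 52.1 to 256, whereas replicates 1 and 2 differed by 2.14 to 5.09 in 3 groups and by 181 in GLY. Of 10 colon epithelial markers the table held CDX2 and VIL1, whose summed level was 24.95 to 31.9 FPKM (fragments scaled to transcript length and library size) in untreated and 4.16 to 7.29 in GLY libraries. It held 0 of 6 endothelial, 1 of 6 fibroblast and 2 of 6 leukocyte markers. The fibroblast marker PDGFRB was at 0.66 FPKM or less in every library, with 0.15 to 0.18 in untreated and 0.29 to 0.62 in GLY. The leukocyte markers CD14 and CD68 went opposite ways. CD68 was at 2.08 to 3.27 FPKM in untreated and 9.43 to 13.45 in GLY libraries, and CD14 at 0.52 to 0.62 and 0.03 to 0.13. The part of these markers in the results was not tested. In bulk RNA, fewer cells of a type and less RNA per cell cannot be told apart.

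The 5 genes spanned a wide range of expression. By mean FPKM over the 12 libraries SLC2A3 stood at 267, rank 21 of the 3699 listed genes, and NDRG1 at 84.9, rank 96. VEGFA followed at 25.1, rank 388. ANKRD37 at 11.6, rank 748, and EGLN3 at 4.52, rank 1296, were the lowest of the 5.

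**Figure D1:**
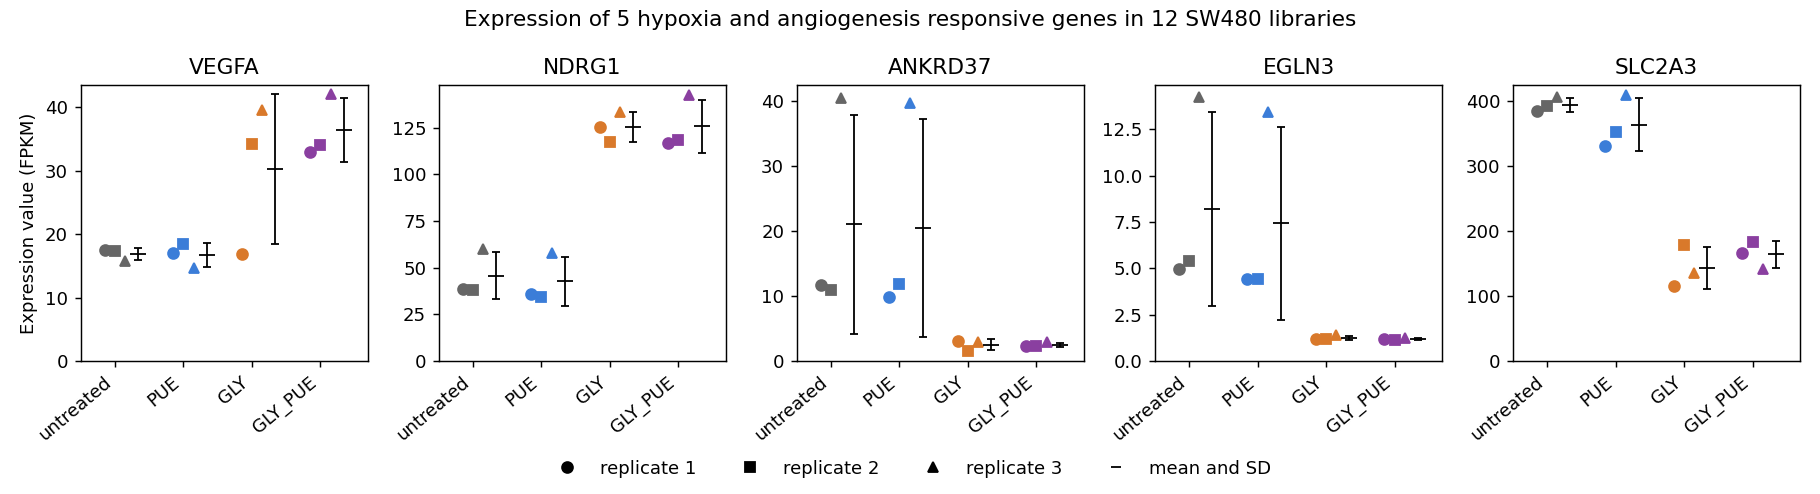
Expression of the 5 genes in each library, with the FPKM value on the y axis and the 4 groups on the x axis; symbols give the replicate number and bars the mean and SD of 3 libraries. NDRG1 is above 117 in GLY and at most 60.1 in untreated libraries, VEGFA of GLY replicate 1 lies at the untreated level, and ANKRD37 and EGLN3 of replicate 3 lie far above replicates 1 and 2 in untreated and PUE libraries.

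With GLY the 5 genes split. VEGFA and NDRG1 were higher than in untreated cells, and ANKRD37, EGLN3 and SLC2A3 were lower. All 5 passed an adjusted p of 0.05 (edgeR's quasi-likelihood test, Benjamini-Hochberg over 3429 genes), where 84.3% of all tested genes passed, 19.7% higher and 64.6% lower. Passing is therefore the rule in this table, and the direction of each gene is better read against the median of all tested genes, a log2 fold change of −1.15. That median rests on scaling to library totals. Trimmed mean (TMM) scaling within the table moved it by 1.12 and called 33.8% of genes, 812 higher (23.7%) and 346 lower (10.1%), in place of 674 and 2216. TMM takes most listed genes as unchanged, which sets the median near 0 (−0.02). As every listed gene had been selected for change, TMM was not the main scaling. The libraries of the 2 groups did not overlap for 4 of the 5 genes, beside 83.3% of all genes.

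VEGFA, the angiogenic ligand, stood at 17.5, 17.3 and 15.7 FPKM in untreated replicates 1, 2 and 3, and at 17.0, 18.5 and 14.7 FPKM in PUE. In GLY it was at 16.9, 34.3 and 39.6 FPKM, and in GLY_PUE at 32.9, 34.1 and 42.2 FPKM. GLY replicate 1 thus lay among the untreated values while the other 2 GLY libraries lay above all of them, so the groups overlapped. The log2 fold change of GLY against untreated was 0.84 (SE 0.28, adjusted p = 0.0167), or 1.79-fold with a 95% interval of 1.17 to 2.75. The call depended on single libraries. Without GLY replicate 1 the log2 fold change was 1.13 (adjusted p = 0.000156), without GLY replicate 2 it was 0.74 (adjusted p = 0.0531), and without GLY replicate 3 it was 0.61 (adjusted p = 0.0712). Without the 4 libraries numbered 3 it was 0.56 (adjusted p = 0.155), and in a fit of the 6 libraries compared the adjusted p was 0.0611. In GLY_PUE no library overlapped with untreated, and VEGFA was 2.18-fold higher (log2 fold change 1.13, SE 0.29, adjusted p = 0.00447), a call that was kept when each library was left out in turn (log2 fold change 1.01 to 1.18). By mean level the order was PUE (16.7 ± 1.89 FPKM), untreated (16.8 ± 0.975), GLY (30.3 ± 11.8) and GLY_PUE (36.4 ± 5.03; SD, n = 3 each), with the first pair and the last pair each closer than the larger of their SDs.

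NDRG1, the hypoxia and stress induced gene, was at 38.8, 38.3 and 60.1 FPKM in untreated and at 35.8, 34.4 and 57.7 FPKM in PUE libraries. In GLY it stood at 125, 117 and 133 FPKM. GLY_PUE libraries had 117, 118 and 142 FPKM, so all 6 libraries with GLY lay above all 6 without it. NDRG1 was 2.74-fold higher in GLY than in untreated cells (log2 fold change 1.46, SE 0.26, adjusted p = 0.000584) and 2.76-fold higher in GLY_PUE (1.47, SE 0.26, adjusted p = 0.000601). By mean level the order was PUE (42.7 ± 13.1 FPKM), untreated (45.7 ± 12.4), GLY (125 ± 8.11) and GLY_PUE (126 ± 14.3; SD, n = 3 each), and neighbours differed beyond their spread at 1 step, from untreated to GLY. The smallest increase was seen in replicate 3, whose untreated level was already high: the CPM ratio of GLY to untreated was 3.21 for number 1, 3.08 for number 2 and 2.23 for number 3.

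EGLN3, the prolyl hydroxylase of the HIF pathway, was at 4.97, 5.40 and 14.3 FPKM in untreated libraries. PUE libraries repeated that pattern with 4.41, 4.43 and 13.5 FPKM. In GLY it fell to 1.21, 1.17 and 1.38 FPKM, and in GLY_PUE to 1.20, 1.16 and 1.22 FPKM. All libraries with GLY lay below all without it, and the 63 to 79 counts behind the GLY values leave them well above the detection floor. Mean levels were 1.19 ± 0.0306 FPKM in GLY_PUE, 1.25 ± 0.112 in GLY, 7.43 ± 5.22 in PUE and 8.21 ± 5.24 in untreated (SD, n = 3 each), with the first pair and the last pair each within their spread. EGLN3 fell by 2.73 on the log2 scale in GLY (SE 0.51, adjusted p = 0.000691), a 6.65-fold lower level, and by 2.77 in GLY_PUE (SE 0.51, adjusted p = 0.000726). The size of the fall rests in part on 1 library. Without untreated replicate 3 it was −2.08 (adjusted p = 0.00286) for GLY and −2.11 (adjusted p = 0.00284) for GLY_PUE, and within numbers 1, 2 and 3 the CPM in GLY was 4.48-, 4.55- and 10.2-fold lower than in untreated cells.

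ANKRD37, the ankyrin repeat gene, had 11.7, 10.9 and 40.5 FPKM in untreated and 9.78, 11.8 and 39.7 FPKM in PUE libraries. In GLY its values were 3.13, 1.52 and 2.88 FPKM, from 60, 29 and 56 counts. GLY_PUE gave 2.32, 2.25 and 2.86 FPKM, and again the groups with and without GLY did not overlap. In ascending order the mean levels were 2.48 ± 0.334 FPKM in GLY_PUE, 2.51 ± 0.866 in GLY, 20.4 ± 16.7 in PUE and 21.0 ± 16.9 in untreated (SD, n = 3 each), and the steps within each pair lay inside the spread. ANKRD37 fell by 3.07 on the log2 scale in GLY (SE 0.63, adjusted p = 0.00135), an 8.37-fold lower level, and by 3.08 in GLY_PUE (SE 0.64, adjusted p = 0.00141). These were the largest fold changes of the 5 genes, and the ones with the widest intervals. Without untreated replicate 3 the log2 fold change was −2.17 (adjusted p = 0.00605) for GLY and −2.19 (adjusted p = 0.00636) for GLY_PUE. Within numbers 1, 2 and 3 the CPM in GLY was 3.75-, 7.26- and 14.0-fold lower. An exon of UFSP2 overlaps ANKRD37 on the opposite strand in GENCODE release 29, and likewise AL136131.3 for VEGFA. Whether counting used strand is not given in the sources used here, so reads of these pairs may not be separable.

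SLC2A3, the glucose transporter, was at 385, 393 and 406 FPKM in untreated libraries and at 331, 352 and 410.4 FPKM in PUE libraries. It fell to 115, 179 and 135 FPKM in GLY. In GLY_PUE it was at 167, 184 and 142 FPKM, and no library with GLY reached the level of one without. The order of mean levels was GLY (143 ± 32.5 FPKM), GLY_PUE (164 ± 21.1), PUE (364 ± 41.3) and untreated (395 ± 10.7; SD, n = 3 each), with a step beyond the spread between GLY_PUE and PUE. The log2 fold change was −1.46 in GLY (SE 0.21, adjusted p = 0.000179; 2.76-fold lower) and −1.27 in GLY_PUE (SE 0.21, adjusted p = 0.000435; 2.40-fold lower). SLC2A3 has a near-identical paralog, SLC2A14, listed at 0.35 to 0.56 FPKM in untreated libraries, and the split of reads between them is uncertain.

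The SLC2A3 call depends on the scaling. Library totals refer to all reads, and TMM to the genes of this table, which were selected for change. Under TMM its log2 fold change was −0.33 in GLY (adjusted p = 0.338), −0.25 in GLY_PUE (adjusted p = 0.478) and −0.12 in GLY_PUE against PUE (adjusted p = 0.781), so SLC2A3 fell about as far as the typical gene of this table. The other 4 genes kept their direction and their call under TMM in GLY, with VEGFA at 1.92, NDRG1 at 2.64, EGLN3 at −1.53 and ANKRD37 at −1.81. In GLY_PUE the TMM values were 2.12 for VEGFA, 2.49 for NDRG1, −1.70 for EGLN3 and −2.0 for ANKRD37, and these 4 calls were kept as well. Relative to the median of all tested genes, VEGFA and NDRG1 were thus higher, ANKRD37 and EGLN3 lower, and SLC2A3 near it.

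**Figure D2:**
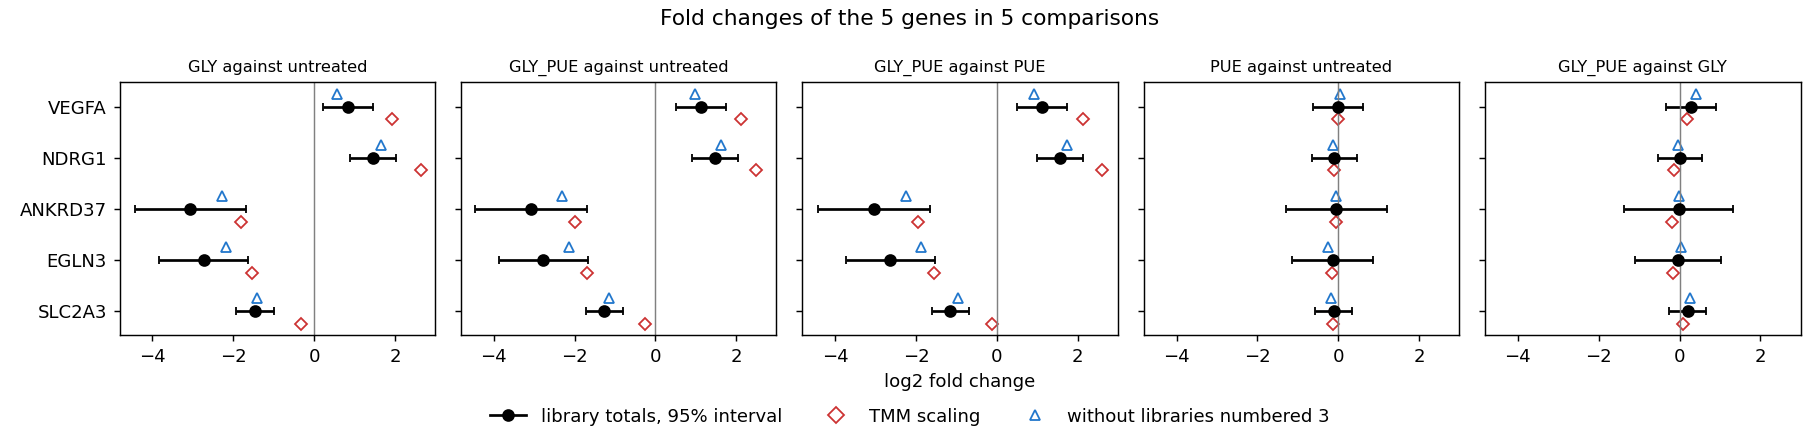
Log2 fold change of each gene in 5 comparisons, with the 95% interval of the fit on library totals (black), the value under TMM scaling (red diamonds) and the value without the libraries numbered 3 (blue triangles). In the 3 comparisons that add GLY, SLC2A3 moves to between −0.33 and −0.12 under TMM, ANKRD37 and EGLN3 move toward 0 without the libraries numbered 3, and in the other 2 comparisons every interval includes 0.

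Against untreated cells GLY_PUE gave the same 5 directions, with all 5 genes past the threshold beside 77.3% of all tested genes (20.2% higher, 57.1% lower). Under TMM 35.3% passed, with 817 higher (23.8%) and 394 lower (11.5%) in place of 694 and 1957. No gene of the 5 overlapped between these groups, beside 87.4% of all genes without overlap. Adding GLY in the presence of PUE, as GLY_PUE against PUE, also called all 5 beside 77.8% of genes (705 or 20.6% higher, 1964 or 57.3% lower), where TMM called 35.9% (830 or 24.2% higher, 402 or 11.7% lower). Here too none of the 5 overlapped, beside 87.8% of all genes. The log2 fold changes of this comparison were 1.13 for VEGFA (adjusted p = 0.0044), 1.56 for NDRG1 (adjusted p = 0.000428), −3.04 for ANKRD37 (adjusted p = 0.00148), −2.63 for EGLN3 (adjusted p = 0.000939) and −1.15 for SLC2A3 (adjusted p = 0.000741). Without PUE replicate 3 ANKRD37 was at −2.12 (adjusted p = 0.00696) and EGLN3 at −1.86 (adjusted p = 0.00356). These comparisons share libraries with those above and are not separate evidence.

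PUE alone moved none of the 5 genes past the threshold, as it moved 0 of the 3429 tested genes (percent called 0). With edgeR 12 genes had an unadjusted p under 0.05, with DESeq2 4 and with limma-voom 14, and none of these were among the 5. Without any effect a share of about 0.05 of the genes would lie under that p. These counts lie far below it, as do those for adding PUE to GLY and for the interaction. A count of 0 calls therefore does not show an absence of effect. The log2 fold changes and their 95% intervals were −0.00 for VEGFA (−0.61 to 0.61), −0.10 for NDRG1 (−0.65 to 0.46) and −0.12 for SLC2A3 (−0.57 to 0.34). The intervals of EGLN3 (−0.14, −1.15 to 0.87) and ANKRD37 (−0.04, −1.29 to 1.20) reach past a 2-fold change in at least 1 direction. Changes of that size are therefore not excluded for them by this fit. Within replicate numbers the PUE and untreated values lay closer, with CPM ratios of 0.833, 1.09 and 0.980 for ANKRD37 and 0.861, 0.823 and 0.957 for EGLN3 in numbers 1, 2 and 3. The authors' deposited table gives SLC2A3 a log2 ratio of −0.117 with a q-value of 3.17e-62 and NDRG1 −0.103 with a q-value of 0.00053 for this comparison. The sizes match the fit here. The PUE and untreated libraries of both genes overlap as groups. Within numbers 1, 2 and 3 the CPM ratios of PUE to untreated were 0.925, 0.903 and 0.961 for NDRG1, lower in 3 of 3 pairs, and 0.858, 0.897 and 1.01 for SLC2A3. With the replicate number as a block 0 genes passed, and the smallest unadjusted p among the 5 genes was 0.546.

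Adding PUE to GLY, as GLY_PUE against GLY, called 0 of 3429 genes as well (percent called 0; 57 genes with an unadjusted p under 0.05 in edgeR, 49 in DESeq2, 59 in limma-voom, and 0 of the 5). VEGFA was at 0.28 (95% interval −0.33 to 0.90) and SLC2A3 at 0.20 (−0.25 to 0.65). NDRG1 was at 0.01 (−0.54 to 0.56), ANKRD37 at −0.02 (−1.36 to 1.33) and EGLN3 at −0.04 (−1.11 to 1.03). The VEGFA value rests on replicate 1, in which GLY_PUE was 2.01-fold above GLY, against ratios of 0.992 and 1.08 in replicates 2 and 3. SLC2A3 had the same shape, with ratios of 1.45, 1.03 and 1.05. In the authors' deposited table the log2 ratios are 0.280 for VEGFA (q-value 3.96e-25) and 0.196 for SLC2A3 (q-value 6.65e-77). The interaction of GLY and PUE, which asks whether GLY acts differently with PUE present, called 0 genes (percent called 0; 33 with an unadjusted p under 0.05 in edgeR, 22 in DESeq2, 35 in limma-voom), and its values for the 5 genes ran from 0.03 for ANKRD37 (95% interval −1.81 to 1.86) to 0.31 for SLC2A3 (−0.33 to 0.95).

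The replicate number carried a second pattern in these genes. Over all groups the libraries numbered 3 were higher than numbers 1 and 2 by a log2 fold change of 1.23 for ANKRD37 (SE 0.28, adjusted p = 0.0107), 0.96 for EGLN3 (SE 0.23, adjusted p = 0.0144) and 0.45 for NDRG1 (SE 0.13, adjusted p = 0.0254). VEGFA (0.15, adjusted p = 0.633) and SLC2A3 (−0.02, adjusted p = 0.940) did not pass. That is 3 of 5 genes beside 23.4% of all tested genes, with 622 higher (18.1%) and 182 lower (5.31%). Under TMM, which moves the median of all genes by −0.25, the counts were 250 higher (7.29%) and 327 lower (9.54%), or 16.8% of genes. Under TMM ANKRD37 kept its call (0.96, adjusted p = 0.0459), and EGLN3 (0.70, adjusted p = 0.0555) and NDRG1 (0.19, adjusted p = 0.396) lost theirs. Without untreated replicate 3, or without PUE replicate 3, 0 of the 5 passed, with ANKRD37 at 0.97 and 0.96, and NDRG1 lost its call in 6 of the 12 fits that left out 1 library.

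The difference between numbers was seen mainly in the libraries without GLY. The CPM of ANKRD37 in number 3 was 3.59 times the mean of numbers 1 and 2 in untreated and 3.68 times in PUE libraries, against 1.25 in GLY and 1.26 in GLY_PUE. For EGLN3 the ratios were 2.73 and 3.11 without GLY, and 1.21 and 1.04 with it. NDRG1 followed with 1.56 and 1.64 against 1.11 and 1.21. VEGFA had 0.906 and 0.831 against 1.53 and 1.24, so its number 3 libraries were the lowest without GLY and the highest with it. A fit with a number 3 term for each state, chosen after the data had been seen, gave shifts without GLY of 1.86 for ANKRD37 (SE 0.22, adjusted p = 0.00083), 1.54 for EGLN3 (SE 0.13, adjusted p = 0.000231) and 0.68 for NDRG1 (SE 0.11, adjusted p = 0.00353), beside 20% of all genes called (14.3% higher, 5.69% lower; 5.63% and 9.3% under TMM, 14.9% in all). Under TMM the NDRG1 shift was 0.39 and did not pass (adjusted p = 0.123). With GLY the shifts were 0.33, 0.17 and 0.21 and none of the 5 genes passed, beside 10.4% of all genes (7.58% higher, 2.8% lower; 3.97% and 3.94% under TMM, 7.9% in all). Without GLY replicate 1, however, VEGFA (0.26, adjusted p = 0.00228), NDRG1 (0.24, adjusted p = 0.0011), ANKRD37 (0.56, adjusted p = 0.0235) and SLC2A3 (−0.35, adjusted p = 0.000199) passed. The difference of the shifts itself passed for ANKRD37 (−1.53, SE 0.34, adjusted p = 0.0488) and EGLN3 (−1.38, SE 0.20, adjusted p = 0.0132), 2 of the 5 beside 3.35% of all genes (1.95% higher, 1.4% lower). Under TMM, where 2.62% of genes passed (2.07% higher, 0.554% lower), ANKRD37 was at −1.49 (adjusted p = 0.114) and EGLN3 at −1.32 (adjusted p = 0.0185). The difference did not pass for NDRG1 (−0.47, adjusted p = 0.173), VEGFA (0.67, adjusted p = 0.386) or SLC2A3 (−0.38, adjusted p = 0.477). Leaving out 1 library at a time ended the ANKRD37 call in 10 of 12 cases and the EGLN3 call in 8 of 12, with values of −1.72 to −1.30 and −1.49 to −1.27. Without GLY replicate 1 the difference passed for all 5. The labels do not say what the number marks.

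**Figure D3:**
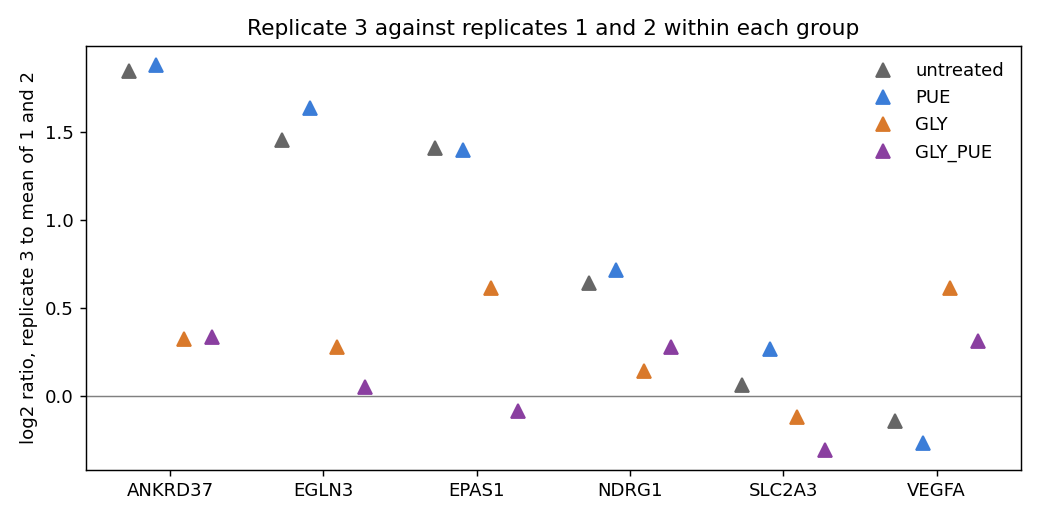
Log2 ratio of the CPM in replicate 3 to the mean of replicates 1 and 2, on the y axis, for the 5 genes and EPAS1 in each of the 4 groups. For ANKRD37, EGLN3, NDRG1 and EPAS1 the untreated and PUE ratios lie above those of GLY and GLY_PUE, and for VEGFA they lie below.

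Other genes of the HIF pathway gave the background to these members. A list of HIF targets of signalling and adaptation had 13 of its 46 genes in the table, 4 of them described above, and all 13 were tested. In GLY 5 rose, 6 fell and 2 did not pass, beside 19.7% of all genes higher and 64.6% lower. The median log2 fold change was −1.10 beside −1.15 for all genes. DDIT4, an inhibitor of mTORC1 signalling, rose by 1.81. CXCR4, a chemokine receptor, fell by 3.09 on the log2 scale, and RAB20, a small GTPase, fell by 1.35, a call that TMM ends (−0.16, adjusted p = 0.821). Under TMM 5 of the 13 rose and 3 fell, with a median of −0.00, beside 23.7% of all genes higher and 10.1% lower. In GLY_PUE 5 rose, 7 fell and 1 did not pass, beside 20.2% of all genes higher and 57.1% lower. The median there was −1.25 beside −1.03 for all genes. Without the libraries numbered 3 the GLY counts were 4 and 6, beside 16.8% and 55.7% of all genes.

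The core machinery of the pathway had 5 of 25 genes in the table, EGLN3 included. EPAS1, which encodes HIF-2 alpha, was at 85.3, 87.4 and 229 FPKM in untreated and at 82.8, 83.4 and 218 FPKM in PUE libraries. GLY libraries had 9.63, 29.6 and 29.9 FPKM and GLY_PUE libraries 27.9, 30.3 and 27.3 FPKM, so every library with GLY was below every library without it. EPAS1 fell by 2.54 on the log2 scale in GLY (SE 0.54, adjusted p = 0.00149; −1.91 without untreated replicate 3) and by 2.23 in GLY_PUE (SE 0.53, adjusted p = 0.00315; −1.60 without untreated replicate 3). Under TMM the values were −1.41 (adjusted p = 0.0204) and −1.16 (adjusted p = 0.0506). Like ANKRD37 and EGLN3 it was high in the libraries numbered 3 mainly without GLY, at 2.66 and 2.63 times numbers 1 and 2 against 1.53 and 0.943 with GLY, although the difference of these shifts did not pass (−1.12, adjusted p = 0.307). EGLN1, the main oxygen sensor among the hydroxylases, fell by 1.10 in GLY (adjusted p = 0.00688) and was at −0.00 under TMM. HSP90AA1, a chaperone that binds HIF1A protein, rose by 1.03, and EP300, a coactivator, did not pass (−1.02, adjusted p = 0.0968). Of the 5 genes 1 rose, 3 fell and 1 did not pass in GLY and in GLY_PUE. The shares of all genes were 19.7% higher and 64.6% lower in GLY, and 20.2% and 57.1% in GLY_PUE. EGLN1 lost its GLY_PUE call in 4 of the 12 fits that left out 1 library (log2 fold change −0.91 to −0.68). Without the libraries numbered 3, 2 of the 5 fell in GLY_PUE, beside 49.3% of all genes. Under TMM 1 rose and 2 fell in GLY, beside 23.7% and 10.1% of all genes. In GLY_PUE 1 rose and 1 fell under TMM, beside 23.8% and 11.5%. HIF1A, ARNT, VHL and EGLN2 were not analysed here.

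Glucose genes other than SLC2A3 were few. Among HIF targets of glucose uptake and glycolysis 3 of 21 were in the table, SLC2A3 included. HK2, which encodes hexokinase 2, had 10.6, 10.5 and 14.2 FPKM in untreated and 11.2, 48.3 and 59.6 FPKM in GLY libraries, with GLY replicate 1 at the untreated level as for VEGFA (log2 fold change 1.69, SE 0.44, adjusted p = 0.0046; 1.44 and adjusted p = 0.0569 without the libraries numbered 3). In GLY_PUE it was at 51.1, 49.0 and 53.9 FPKM (2.05, adjusted p = 0.00181). PDK3, a kinase that restrains pyruvate dehydrogenase, fell by 1.71 (−0.54 and adjusted p = 0.0556 under TMM). Of the facilitative glucose transporters 5 of 14 were tested, SLC2A3 included, and 4 fell and 0 rose in GLY, beside 64.6% lower for all genes. The 4 were SLC2A3, SLC2A4, SLC2A12 (−1.39) and SLC2A14 (−1.54), whose reads may not be separable from those of SLC2A3. Mean untreated levels were only 0.553 FPKM for SLC2A4, 0.7 for SLC2A12 and 0.453 for SLC2A14, against 395 for SLC2A3. The median of −1.46, beside −1.15 for all genes, was the value of SLC2A3 itself. In GLY_PUE 3 fell, beside 57.1% of all genes. SLC2A4 (−1.48) lost its call without untreated replicate 3 (−0.86, adjusted p = 0.118), and SLC2A10 (−1.07, adjusted p = 0.0648) did not pass in the main fit. With the replicate number as a block SLC2A10 passed (−1.26, adjusted p = 0.00823). It also passed without the libraries numbered 3, and in 1 of the 12 fits that left out 1 library. Under TMM 0 of the 5 passed in GLY or in GLY_PUE, beside 33.8% and 35.3% of all genes. SLC2A1 was not analysed here. All 5 transporters fell in GLY without the libraries numbered 3, beside 55.7% of all genes. With the replicate number as a block all 5 passed in GLY_PUE. The share of all genes was not counted in that setting, so this count has no background. Without the block, in another model, the share was 77.3% in either direction and 57.1% lower.

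Among angiogenic factors and receptors outside the VEGF family 11 of 27 were in the table, and their median lay on the other side of 0 from that of all genes. In GLY 6 rose, 2 fell and 3 did not pass, with a median log2 fold change of 1.50 beside −1.15. Under TMM 7 rose and 0 fell, beside 23.7% of all genes higher and 10.1% lower. ROBO4, a receptor that stabilises vessels, rose by 4.81 from 0.379 to 10.8 CPM (4.07 without the libraries numbered 3), HBEGF, a ligand of the EGF receptor, by 2.99, and PLAU, the urokinase protease, by 2.67. PDGFA, the platelet-derived growth factor A chain, fell by 1.94, and was at −0.75 (adjusted p = 0.0772) under TMM. The untreated level of ROBO4 rests on 12, 6 and 5 counts. Other genes of the list were also low, down to a mean of 0.0833 FPKM in untreated libraries. All genes had 19.7% higher and 64.6% lower in GLY. In GLY_PUE 6 rose and 4 fell (median 1.55), beside 20.2% and 57.1% of all genes. Under TMM 7 rose and 0 fell there, beside 23.8% and 11.5% of all genes. In the libraries numbered 3, 2 of the 11 were called higher and 3 lower than in numbers 1 and 2, beside 18.1% and 5.31% of all genes. Of the VEGF family and its receptors VEGFA alone was in the table, 1 of 11, and FLT1, KDR, NRP1 and NRP2 were not analysed here.

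The families of EGLN3 and NDRG1 did not move together. Of the prolyl and lysyl hydroxylases 4 of 12 were tested. P4HA2, which modifies collagen, rose by 1.13 (SE 0.24, adjusted p = 0.00146) where EGLN1 and EGLN3 fell, and PLOD2 (−1.22, adjusted p = 0.0533) did not pass. With the replicate number as a block PLOD2 passed, at −1.27 in GLY (adjusted p = 0.0278) and −1.29 in GLY_PUE (adjusted p = 0.0275). All 4 NDRG genes were in the table. NDRG1 rose while NDRG2 (−1.27), NDRG3 (−1.12) and NDRG4 (−1.06) fell in GLY, at levels of 0.22 to 10.7 FPKM against 117 to 133 for NDRG1. Those 3 calls were relative to library totals: under TMM NDRG2 was at −0.06, and NDRG3 (0.03) and NDRG4 (0.12) had the other sign, with none of the 3 past the threshold. NDRG2 also lost its call without the libraries numbered 3 (−1.02, adjusted p = 0.0526). Over all lists, 31 genes other than the 5 members were tested, and in GLY 11 rose, 14 fell and 6 did not pass (median −1.06), beside 19.7% of all genes higher and 64.6% lower. Under TMM 12 rose and 2 fell, with a median of 0.03, beside 23.7% and 10.1% of all genes.

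**Figure D4:**
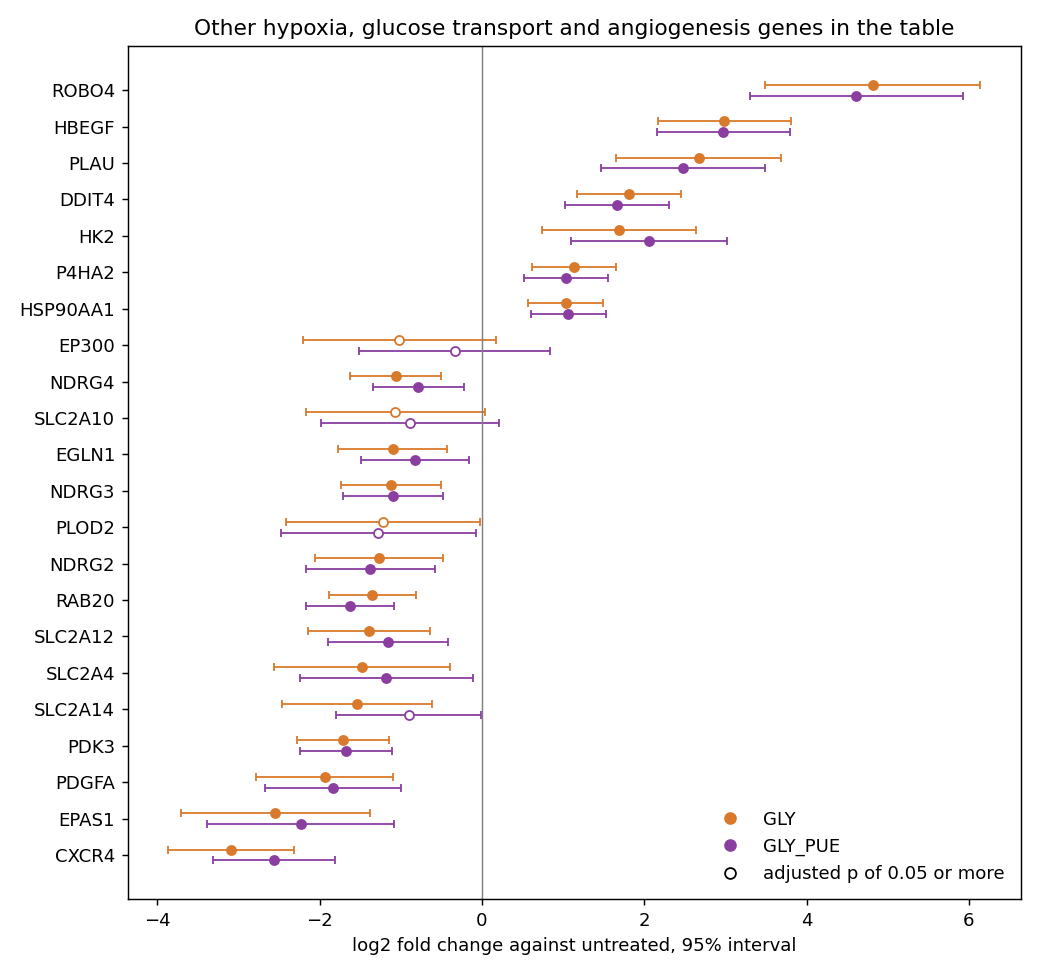
Log2 fold change against untreated, with its 95% interval, of 22 further pathway genes in GLY (orange) and GLY_PUE (purple); open circles have an adjusted p of 0.05 or more. ROBO4, HBEGF and PLAU lie at 2.67 or above in GLY, and CXCR4 and EPAS1 lie lowest at −3.09 and −2.54.

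Genes with the most similar profiles were taken as those with the smallest root mean square difference of centred log2 CPM over the 12 libraries, among 2452 genes. For VEGFA these were ACAD11 (0.0635), LARP1B (0.0876) and CCSER2 (0.0936), whose GLY replicate 1 was likewise at or near the untreated range. ACAD11, an acyl-CoA dehydrogenase gene, ranged from 4.17 to 8.48 FPKM in GLY and from 3.38 to 4.10 in untreated libraries. For SLC2A3 they were HIP1 (0.101), ZNF503 (0.111) and GOLM1 (0.120), and for NDRG1 they were RGS16 (0.158), KCNK6 (0.189) and MALL (0.232). EGLN3 lay nearest LMO2 (0.223), GRAP (0.228) and SLC4A8 (0.252), and ANKRD37 nearest GRAP (0.288), IGFBPL1 (0.296) and MYH7B (0.300). GRAP, an adaptor protein gene, shared the high replicate 3 of both, with a highest untreated level of 7.60 FPKM against 2.12 and 2.43. Between members, ANKRD37 and EGLN3 were close (0.308), VEGFA and NDRG1 were farther apart (0.517), and SLC2A3 lay nearer EGLN3 (0.755) than NDRG1 (1.46). All of these genes come from a table selected for change, and every profile comes from the same libraries, so the distances describe these 12 libraries only.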

How the data were processed

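The authors deposited 1 table of 3699 genes for 12 libraries. Per the file headers it holds read counts, which are estimated counts without normalization (58.2% within 0.001 of a whole number), and an expression value whose unit the headers leave out and which behaves as FPKM. The remaining deposited columns are the authors' log2 ratios and p-values and q-values per comparison. Each listed gene reached 1 on the authors' log2 scale, in either direction, with a q-value no higher than 0.001, in some comparison. TopHat and DESeq 1.32.0 are named, without a role, in the submitters' processing notes. For the counting tool, genome build and strandedness, nothing is given in the sources used here.

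The relative size of each library was recovered by dividing counts by FPKM for 625 genes (100 or more counts and 5 or more FPKM throughout), and the absolute scale came from 39 genes with a single transcript in GENCODE release 29 (about 20200000 reads for the first untreated library, 95% interval 20000000 to 20700000; range over libraries 19700000 to 21400000). Rounded counts went into edgeR 4.0.16 under R 4.3.3, with filterByExpr, these totals as library sizes and 1 robust quasi-likelihood model for all 4 groups. Benjamini-Hochberg adjustment covered 3429 genes at a threshold of 0.05, and the fit was tested on simulated data. The simulated libraries had no shift by replicate number and no outlying library, so that test does not cover these features of the data. Other settings tried were scaling by TMM or RLE, DESeq2 1.42.0, limma 3.58.1 with voom and on log2(FPKM + 1), no filter, 10 CPM in 3 libraries, only the libraries compared, stricter thresholds, a replicate block and left-out libraries. Groups follow the treatment label. Same-numbered libraries of 2 groups correlated in their deviations from the group means at 0.0541 to 0.884, over 0.1 in 15 of 18 pairs. Between untreated and PUE, numbers 1 and 2 also correlated across numbers, at 0.615 and 0.675, beside 0.780 and 0.673 for the same number. These values therefore do not show a pairing of numbers 1 and 2. All 3 pairs passed 0.1 between untreated and PUE, untreated and GLY_PUE, PUE and GLY_PUE, and GLY and GLY_PUE. They did not all pass between untreated and GLY (0.0854, 0.0922 and 0.331) or PUE and GLY (0.0541, 0.1995 and 0.227).

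The members and gene lists were chosen with earlier results of these data known. Named are the 5 members, up to 4 further tested genes per list by smallest p in GLY against untreated, EPAS1 and EGLN1 from a fixed list of 12, and the 3 nearest profiles per member among genes whose average log2 CPM reached 1. The result of 1 gene that this rule names is not reported here.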

Additional observations from a re-analysis of the deposited data

Results flagged for a closer look

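ANKRD37 and EGLN3 were each singled out because their shift between replicate number 3 and numbers 1 and 2 differed between libraries with and without GLY, by a test of that difference. For ANKRD37 the difference was −1.53 on the log2 scale (SE 0.34, adjusted p = 0.0488, edgeR). The shift was 1.86 without GLY, where number 3 held 36.7 CPM in untreated and 36.0 in PUE libraries against means of 10.2 and 9.79 for numbers 1 and 2. It was 0.33 with GLY, where number 3 held 2.63 and 2.60 CPM against 2.10 and 2.07. For EGLN3 the difference was −1.38 (SE 0.20, adjusted p = 0.0132), with 37.8 and 36.1 CPM in number 3 against 13.8 and 11.6 without GLY, and 3.71 and 3.27 CPM against 3.06 and 3.15 with it. The test was chosen after the data had been seen. What the replicate number marks is not given in the labels, and in GLY it coincides with the labelled hour, so the 2 cannot be told apart there.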

How the results depend on the processing

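In GLY against untreated 5 of the 5 genes passed, and 4 to 5 when each library was left out in turn. In GLY_PUE against untreated and against PUE all 5 passed in each such fit, and 0 passed for PUE against untreated, GLY_PUE against GLY and the interaction. For replicate number 3 against numbers 1 and 2 the count of 3 became 0 at an adjusted p of 0.01, 1 with a log2 fold change of at least 1 required, 1 under TMM, and 0 to 3 with libraries left out. For the difference of that shift with and without GLY the count of 2 became 0 at an adjusted p of 0.01, 1 under TMM, RLE, limma-voom or no filter, and 0 to 5 with libraries left out, the 5 without GLY replicate 1. The cause was not tested. Called values changed sign, without passing, for NDRG3 in GLY under TMM (0.029), NDRG4 in GLY under TMM (0.12) and RLE (0.056), NDRG4 in GLY_PUE under TMM (0.25) and RLE (0.22), and EGLN1 in GLY_PUE under TMM (0.19) and RLE (0.16). Of the other values for single genes and lists, 2568 stayed on their side of the threshold, 137 lost and 46 gained a call, and 25 counts moved. With the replicate block no call of the 5 genes changed, with VEGFA at 0.80 (adjusted p = 0.018) and ANKRD37 at −2.83 in GLY. A block cannot be fitted where the number itself is compared. With GLY replicate 1 and the libraries numbered 3 left out, a setting added after the data had been seen, GLY holds 1 library, assumed to vary like the other groups, and VEGFA was at 0.99. ANKRD37 and EGLN3 had 29 to 79 counts per GLY library.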
